A study of Mus musculus with 27 samples.

Results

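The filaggrin-type fused S100 genes are Flg, Flg2, Hrnr, Rptn, Tchh and Tchhl1, and they were taken by symbol from each table: 6 of 51906 genes in the bulk RNA-seq count table and 6 of 32285 genes in the single-cell matrices. A fused S100 gene encodes a protein that opens with an S100 domain, a calcium-binding fold, and continues in a long stretch of repeats, which is cross-linked and cleaved as a keratinocyte dies and cornifies. Filaggrin (Flg) is stored in keratohyalin granules of the epidermal granular layer, binds keratin filaments together and is then degraded to the amino acids that hold water in the stratum corneum. Filaggrin-2 (Flg2), hornerin (Hrnr) and repetin (Rptn) are likewise known from cornifying epithelium. Trichohyalin (Tchh) is instead the granule protein of the inner root sheath and of the hair medulla, where it is citrullinated and fixes the keratin filaments, and trichohyalin-like 1 (Tchhl1) is its nearest neighbour on the chromosome. The series therefore allowed 4 members known mainly from epidermis to be set beside 2 linked to the hair follicle.

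The bulk libraries came from hair follicle stem cells (HFSCs), the follicle-bulge cells that rebuild the hair and can enter the epidermis after a wound. HFSCs of telogen back skin (postnatal day 55) were sorted, expanded on inactivated feeder cells and moved to 3D culture. There were 8 libraries in 4 groups of 2: wild-type or labelled Rxra cKO, each in serum (FBS) or in atRA+PKCi, a medium in which the supplement B-27 replaced serum and all-trans retinoic acid and the protein kinase C inhibitor Go6976 were added. Rxra cKO cells carried Sox9-CreER, floxed Rxra alleles and a Cre-dependent YFP reporter, so deletion depends on a tamoxifen-activated Cre made in cells that use the Sox9 promoter. Rxra encodes the retinoid X receptor that pairs with retinoic acid receptors on DNA. Within a genotype the labels give the same mouse for the same replicate number, so each genotype rests on 2 mice, and the FBS and atRA+PKCi libraries of one mouse are not independent. The single-cell data came from wild-type mice: skin of 2 mice in anagen VI (postnatal day 32), the full growth phase of the hair, and hashtagged 3D cultures of HFSCs from 2 mice.

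Library totals lay between 25150300 and 35879800 estimated counts. Rxra itself was at 95.7 and 97.2 CPM (counts scaled to library size) in the FBS libraries labelled Rxra cKO and at 122 and 149 CPM in wild-type FBS, but at 145 and 148 CPM against 143 and 147 CPM in atRA+PKCi. The Rxra level thus did not separate the genotypes in atRA+PKCi (log2 difference 0.01 ± 0.09 SE), and a gene-level count also includes exons outside a deleted stretch, so it does not check the labels. Every direction between genotypes below rests on those labels. Summed over 10 fibroblast genes chosen to trace feeder cells, the level was 10.5 and 15.0 CPM for wild-type FBS, 8.50 and 11.5 CPM for wild-type atRA+PKCi, 7.84 and 10.4 CPM in Rxra cKO FBS and 6.15 and 7.23 CPM in Rxra cKO atRA+PKCi. In wild-type atRA+PKCi most of the sum was Twist2, at 6.86 and 6.53 CPM against 2.45 and 2.51 CPM in wild-type FBS. Pdgfra went the other way, from 5.44 and 4.91 CPM in wild-type FBS to 0.706 and 0.665 CPM, so the sum hides opposite changes.

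All 6 genes lie on the plus strand of mouse chromosome 3 in the GENCODE M21 annotation of GRCm38, and they are the only protein-coding genes between 93197278 and 93471980, a span of 274.7 kb. The order is Flg2 (93197278 to 93221391), Flg (93273523 to 93293686), Hrnr (93319749 to 93333570), Rptn (93393699 to 93399442), Tchh (93442330 to 93449077) and Tchhl1 (93468754 to 93471980). The remaining mouse gene of this class, Crnn (cornulin), lies just before them at 93144787 to 93149819. The exonic lengths differ widely, from 20803 bases in Flg2 and 18829 bases in Flg through 11187 in Hrnr, 5823 in Tchh and 4146 in Rptn to 2066 in Tchhl1, so levels of different genes were compared only as CPM per kb of exon. The Flg and Flg2 models carry the annotation's tag for an error in the reference genome, which makes their lengths less certain. The antisense RNA Gm37245 spans Hrnr, Rptn and Tchh without sharing an exonic base and had at most 0.0641 CPM in any library.

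The shared ancestry of the family can be read in the first coding exon, which encodes the start of the S100 domain. It was 138 bases long in Flg, Flg2, Hrnr, Rptn and Tchh and 141 bases in Tchhl1. In the lines below, read from the GENCODE M21 transcripts (GRCm38, plus strand, 5′ to 3′), capitals mark the 46 of 138 positions at which the 5 genes of equal length carry the same base. Tchhl1, being longer, was not aligned and is given in lower case.
Flg, chr3:93277573-93277710: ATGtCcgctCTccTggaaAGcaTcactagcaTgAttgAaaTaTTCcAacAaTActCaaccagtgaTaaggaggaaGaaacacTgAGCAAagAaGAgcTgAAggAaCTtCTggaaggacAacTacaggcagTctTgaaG
Flg2, chr3:93200210-93200347: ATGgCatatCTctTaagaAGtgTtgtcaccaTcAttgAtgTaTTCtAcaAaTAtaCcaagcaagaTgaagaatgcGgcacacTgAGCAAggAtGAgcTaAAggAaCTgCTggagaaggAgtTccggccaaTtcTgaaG
Hrnr, chr3:93320577-93320714: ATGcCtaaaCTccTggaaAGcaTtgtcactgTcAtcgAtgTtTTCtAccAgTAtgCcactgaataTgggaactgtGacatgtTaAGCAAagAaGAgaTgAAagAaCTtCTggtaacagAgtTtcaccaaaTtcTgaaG
Rptn, chr3:93394979-93395116: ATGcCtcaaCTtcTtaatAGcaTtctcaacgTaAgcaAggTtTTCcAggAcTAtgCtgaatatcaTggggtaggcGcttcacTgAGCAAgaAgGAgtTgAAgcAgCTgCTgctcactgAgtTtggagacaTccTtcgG
Tchh, chr3:93442330-93442467: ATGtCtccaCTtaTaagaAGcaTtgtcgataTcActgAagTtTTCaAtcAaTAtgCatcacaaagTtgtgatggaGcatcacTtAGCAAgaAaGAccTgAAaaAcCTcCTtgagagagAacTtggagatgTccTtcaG
Tchhl1, chr3:93469498-93469638: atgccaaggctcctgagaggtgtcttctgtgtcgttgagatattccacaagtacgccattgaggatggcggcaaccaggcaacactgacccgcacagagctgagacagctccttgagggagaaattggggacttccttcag

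Identity over this exon ranged from 49.3% between Flg and Rptn to 67.4% between Flg2 and Hrnr. Rptn and Tchh, which are neighbours on the chromosome, shared 63.0% of bases, and Flg and Flg2 shared 60.9%. Only Flg2 and Hrnr were more alike than Rptn, an epidermal member, and Tchh, the hair member.

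Because the 6 genes sit side by side and changed in groups in the bulk cultures, the sequence just upstream of their starts is also shown, from the RefSeq promoter table (GRCm38.p6, plus strand, 5′ to 3′; all 6 genes matched). In the lines below capitals mark a match to TGANTCA, where N is any base. This pattern is looser than the core of an AP-1 motif, which has C or G at N, and it can be searched alike on both strands. For 5 genes the line gives the 110 bases that end just before the RefSeq or the GENCODE start, whichever comes first. For Tchh none is shown, since its annotated start is its first coding base.
Flg2, chr3:93197163-93197272: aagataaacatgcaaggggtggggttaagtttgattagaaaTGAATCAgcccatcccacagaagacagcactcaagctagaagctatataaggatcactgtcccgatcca
Flg, chr3:93273413-93273522: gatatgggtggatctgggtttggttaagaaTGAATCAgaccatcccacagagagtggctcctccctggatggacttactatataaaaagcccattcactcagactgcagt
Hrnr, chr3:93319639-93319748: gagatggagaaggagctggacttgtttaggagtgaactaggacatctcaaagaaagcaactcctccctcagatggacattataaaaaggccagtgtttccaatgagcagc
Rptn, chr3:93393589-93393698: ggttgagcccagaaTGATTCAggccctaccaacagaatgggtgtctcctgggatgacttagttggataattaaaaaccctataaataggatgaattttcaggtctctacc
Tchhl1, chr3:93468644-93468753: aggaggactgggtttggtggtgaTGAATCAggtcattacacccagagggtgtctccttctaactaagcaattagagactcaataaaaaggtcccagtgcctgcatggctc

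A TGANTCA match began 69 bases before the RefSeq start in Flg2, 103 in Flg, 96 in Rptn and 87 in Tchhl1. In Flg that start, at 93273546, lies past the end of the line shown. Thus 4 of the 6 windows of 300 bases held one, counting the Tchh window, which is placed at the first coding base. Of all 27025 promoter windows 7.93% held one. The matches were TGAATCA in Flg2, Flg and Tchhl1 and TGATTCA in Rptn, so none had the C or G of the AP-1 core at N. TATAAA, searched on both strands, was found in Flg, Hrnr and Rptn, 31 to 53 bases before the start, and in 14.2% of all windows. AGGTCA, a core motif of nuclear receptors, was found in Rptn at 141 bases and in Tchhl1 at 81 bases, and in 16.0% of all windows. The motifs were chosen after the sequences had been seen, so setting the members beside all windows is no test. A match describes letters only, not binding.

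In wild-type HFSCs the 4 epidermal members were 247- to 502-fold lower in pooled, scaled counts in atRA+PKCi than in FBS. On the same scale Tchhl1 was 57.3-fold lower and Tchh 6.19-fold lower. Flg was at 91.2 and 51.2 CPM in the FBS libraries and at 0.289 and 0.127 CPM in atRA+PKCi, the latter from 9 and 4 counts. This was a log2 fold change of -8.40 ± 0.42 SE (edgeR quasi-likelihood test, Benjamini-Hochberg adjusted p = 6.12e-07). Hrnr was at 43.9 and 35.9 CPM in FBS and at 0.0641 and 0.095 CPM in atRA+PKCi, from 2 and 3 counts. Its log2 fold change was -8.89 ± 0.45 (adjusted p = 6.31e-07). Rptn was at 252 and 230 CPM in FBS and at 0.834 and 1.05 CPM in atRA+PKCi. Its log2 fold change was -8.00 ± 0.28 (adjusted p = 6.46e-08). Flg2 had 137 and 73 counts (5.00 and 2.82 CPM) in FBS and 1 and 0 counts in atRA+PKCi. Its fitted log2 fold change of -7.61 ± 0.68 (adjusted p = 2.18e-05) depends on the prior count, and the ratio of the pooled counts was 247-fold lower with a 95% counting interval of 43.9 to 9813. Without wild-type atRA+PKCi 1 the log2 fold change was -9.11 for Flg and -9.87 for Flg2, and without wild-type atRA+PKCi 2 it was -6.76 for Flg2, all past the threshold.

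The hair follicle members moved in the same direction to different degrees. Tchh went from 86.2 and 79.7 CPM in FBS to 13.7 and 13.1 CPM in atRA+PKCi, a log2 fold change of -2.63 ± 0.11 (edgeR adjusted p = 2.11e-07), and its 428 and 414 counts in atRA+PKCi left it clearly detected. Tchhl1 went from 8.18 and 8.27 CPM to 0.0962 and 0.19 CPM, a log2 fold change of -5.80 ± 0.33 (adjusted p = 1.37e-06). The FBS and atRA+PKCi libraries did not overlap for any member. The share of all genes without such overlap was not counted, so this only describes the levels. All 6 members were called lower, where 26.6% of the 15965 genes tested were, and their median log2 fold change was -7.80 against 0.03 over all genes tested.

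**Figure D1:**
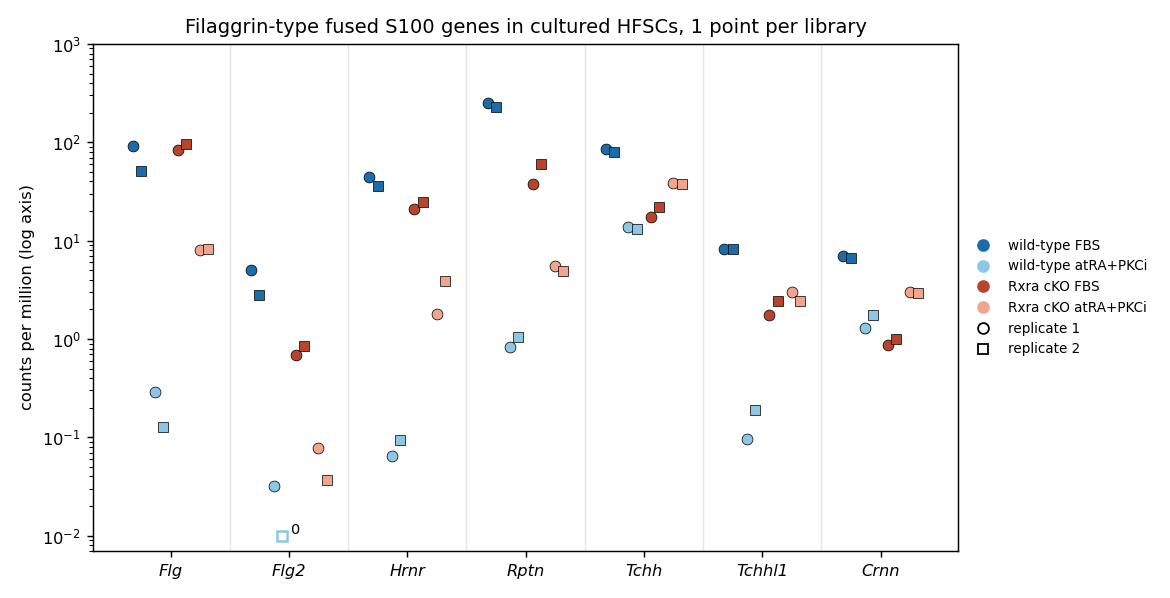
Level of each member and of Crnn in the 8 bulk RNA-seq libraries, in CPM on a log axis. Points are libraries, coloured by genotype and medium and shaped by replicate, and the open square marks a library with 0 counts. All 6 members sit lowest in wild-type atRA+PKCi and Crnn in Rxra cKO FBS, and Tchh stays above 13 CPM in every group.

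In the cultures labelled Rxra cKO the same change of medium gave a smaller fall of the epidermal members and no fall of the hair members. Flg went from 83.5 and 95.4 CPM in FBS to 8.01 and 8.31 CPM in atRA+PKCi (log2 fold change -3.46 ± 0.26, edgeR adjusted p = 1.31e-05). Hrnr went from 584 and 771 counts to 69 and 104 counts, or 1.81 and 3.87 CPM (-3.07 ± 0.27, adjusted p = 3.82e-05), and Rptn from 37.5 and 59.8 CPM to 5.55 and 4.92 CPM (-3.21 ± 0.22, adjusted p = 7.64e-06). Flg2 went from 19 and 26 counts to 3 and 1 counts (-3.56 ± 0.62, adjusted p = 0.00184). Without Rxra cKO atRA+PKCi 1 the Flg2 value was -4.19, and without Rxra cKO atRA+PKCi 2 the Hrnr value was -3.67, both past the threshold. These 4 genes were lower in both atRA+PKCi libraries than in either FBS library, again with no share counted over all genes. Tchh took the opposite course, from 17.3 and 21.8 CPM in FBS to 38.3 and 37.4 CPM in atRA+PKCi, a rise of 0.95 ± 0.11 on the log2 scale (adjusted p = 0.000159). Tchhl1 was at 1.76 and 2.43 CPM in FBS and at 3.01 and 2.46 CPM in atRA+PKCi, a difference of 0.39 ± 0.24 that did not pass the test (adjusted p = 0.238). Thus 4 members were called lower, against 22.2% of all genes, and 1 was called higher, against 20.8%. The median of the 6 was -3.14 against 0.02 over all genes.

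The difference between these responses was tested as the interaction of genotype and medium, that is, the wild-type medium effect minus the Rxra cKO medium effect. It was negative and passed for all 6 members, where 13.3% of all genes were called lower and 11.3% higher. The log2 difference was -4.94 ± 0.59 for Flg (edgeR adjusted p = 0.000539), -5.83 ± 0.65 for Hrnr (0.000365), -4.79 ± 0.37 for Rptn (5.34e-05), -3.58 ± 0.15 for Tchh (3.17e-06) and -6.19 ± 0.42 for Tchhl1 (2.50e-05). Flg2, which has only 1 count in wild-type atRA+PKCi, was at -4.05 ± 1.25 (adjusted p = 0.0456). That call was lost with DESeq2 (adjusted p = 0.0723) and when any of 6 of the 8 libraries was left out, with values from -6.33 without wild-type atRA+PKCi 1 to -3.20 without wild-type atRA+PKCi 2, and -3.42 without Rxra cKO atRA+PKCi 1. The Flg value was -5.67 without wild-type atRA+PKCi 1 and the Hrnr value -5.23 without Rxra cKO atRA+PKCi 2, both past the threshold.

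**Figure D2:**
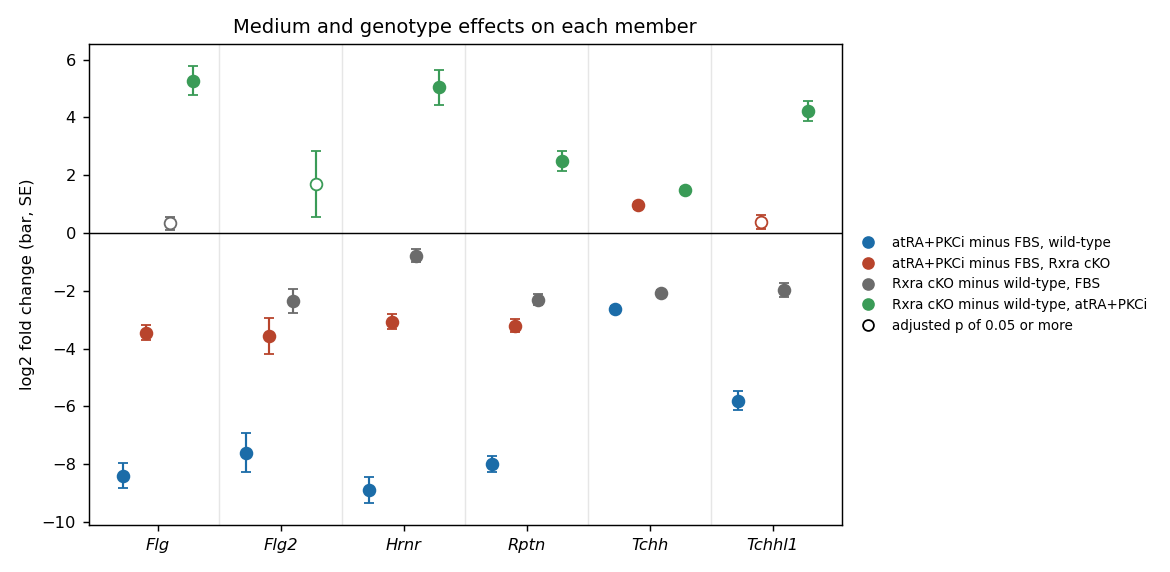
Log2 fold change of each gene for the medium effect in wild-type and in Rxra cKO cells and for the genotype effect in FBS and in atRA+PKCi; filled points passed the test, open points did not, and bars are 1 SE on each side. The wild-type medium effects lie between -8.89 and -2.63 for the 6 members, and in Rxra cKO cells Tchh lies above 0 while Flg, Flg2, Hrnr and Rptn lie below -3.

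In FBS alone, most members were lower in the cultures labelled Rxra cKO than in wild type, with Flg apart. Rptn was lower by a log2 difference of -2.31 ± 0.18 (edgeR adjusted p = 2.38e-05), from 230 to 252 CPM in wild type to 37.5 to 59.8 CPM. Tchh was lower by -2.08 ± 0.11 (adjusted p = 2.64e-06), Tchhl1 by -1.97 ± 0.24 (0.000269) and Flg2 by -2.35 ± 0.41 (0.0019). Hrnr was lower by -0.79 ± 0.23 (adjusted p = 0.0207), a call lost when any of 3 single libraries was left out (wild-type FBS 1, Rxra cKO FBS 1 and Rxra cKO FBS 2; adjusted p = 0.101, 0.122 and 0.0563). Flg did not pass, at 0.33 ± 0.22 (adjusted p = 0.268), and its groups overlapped because the wild-type libraries differed between themselves (91.2 and 51.2 CPM). Without wild-type FBS 1 the Flg difference was 0.81 and passed (adjusted p = 0.000965), and without wild-type FBS 2 it was -0.03. In all, 5 of 6 members were called lower, against 20.5% of all genes, and none higher, against 22.3%.

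In atRA+PKCi the order was turned round, and the members were higher in the cultures labelled Rxra cKO. The log2 difference was 5.27 ± 0.51 for Flg (edgeR adjusted p = 6.05e-05), 5.03 ± 0.61 for Hrnr (0.000216), 4.22 ± 0.34 for Tchhl1 (2.15e-05), 2.48 ± 0.34 for Rptn (0.000457) and 1.495 ± 0.11 for Tchh (1.27e-05). For Flg this set 306 and 223 counts beside 9 and 4, and for Tchhl1 115 and 66 counts beside 3 and 6. Flg2 had 3 and 1 counts in Rxra cKO and 1 and 0 in wild type, which is 3.86-fold (0.382 to 190.1, 95% counting interval), and did not pass (adjusted p = 0.271). The Flg value was 5.99 without wild-type atRA+PKCi 1 and the Hrnr value 4.44 without Rxra cKO atRA+PKCi 2, both past the threshold. Thus 5 of 6 members were called higher, against 23.0% of all genes, and none lower, against 20.2%. These comparisons share libraries with the medium effects above and are not independent of them.

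Measured per kb of exon, the make-up of the family also shifted. In wild-type FBS the summed level was 88.6 and 79.2 CPM per kb, of which Rptn made up 68.6% and 70.0% and Tchh 16.7% and 17.3%. In wild-type atRA+PKCi the sum was 2.63 and 2.61 CPM per kb, and Tchh made up 89.7% and 86.2% of it. In Rxra cKO FBS the sum was 19.2 and 26.7 CPM per kb with 15.4% and 14.1% from Tchh, and in Rxra cKO atRA+PKCi it was 9.97 and 9.58 CPM per kb with 66.0% and 67.0% from Tchh. The ratio of Tchh to Flg per kb was 3.06 and 5.03 for the wild type in FBS, 154 and 335 for the wild type in atRA+PKCi, 0.668 and 0.740 in Rxra cKO FBS, and 15.5 and 14.5 in Rxra cKO atRA+PKCi. In both genotypes the atRA+PKCi libraries therefore held a larger Tchh share than the FBS libraries, although the family sum was lower. Flg stood below Tchh per kb in both wild-type FBS libraries and above it in both Rxra cKO FBS libraries. This order depends on the exonic length of Flg, which is less certain because of the reference error tag.

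**Figure D3:**
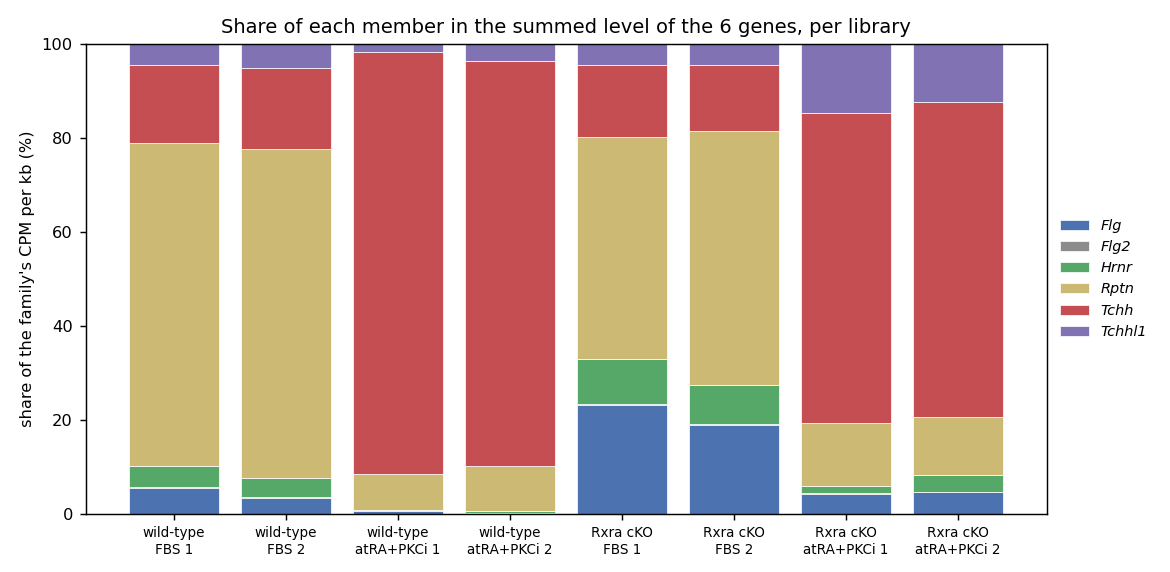
Share of each member in the summed CPM per kb of the 6 genes, 1 stacked bar per library, from 0 to 100%. Rptn fills 68.6% and 70.0% of the wild-type FBS bars, and Tchh fills 89.7% and 86.2% of the wild-type atRA+PKCi bars.

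Cornulin, encoded by Crnn, followed Tchh rather than the epidermal members in sign. Wild-type libraries had 7.04 and 6.68 CPM of it in FBS and 1.28 and 1.74 CPM in atRA+PKCi, and the Rxra cKO libraries 0.863 and 1.00 CPM in FBS and 2.99 and 2.91 CPM in atRA+PKCi. The medium effect was -2.18 ± 0.21 in wild type (edgeR adjusted p = 4.02e-05) and 1.65 ± 0.23 in Rxra cKO (0.000492), and the interaction was -3.83 ± 0.31 (6.57e-05).

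Genes that act on these proteins were given by list. Of 20 tested genes for the processing of filaggrin-type proteins (proteases, their inhibitors, peptidylarginine deiminases and transglutaminases), 16 were lower, 1 was higher and 3 did not pass in the wild-type medium effect, with a median log2 fold change of -3.03. Of all genes tested, 26.6% were lower and 27.2% higher. Klk5 and Klk7, serine proteases that act in the stratum corneum, fell. Klk5 had 595 and 573 counts in FBS and 0 in both atRA+PKCi libraries, which is at least 458-fold lower against a floor of 3 counts over the group, and Klk7 was at -8.95 on the log2 scale. Padi4, a deiminase, fell by 0.54, and Padi1, another deiminase, rose by 3.26 on the log2 scale. Of 21 tested genes of the cornified envelope, 20 were lower, none was higher and 1 did not pass, with a median of -6.30. Lce1a1 and Lce1b, late envelope proteins, also had 0 counts in both atRA+PKCi libraries and were at least 1097-fold and 467-fold lower against the same floor. Sprr1b (-2.53) and Crnn (-2.18) fell as well. With Lce1a1, Lce1b and Sprr4, which are at 0 in that group, set to their bounds, the envelope median was -4.91, and with Klk5 at its bound the processing median was again -3.03.

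Of 11 tested genes of the inner root sheath and medulla, where trichohyalin acts, 5 were lower, 4 were higher and 2 did not pass, with a median of -0.19 and against the same 26.6% lower and 27.2% higher of all genes. The list has 18 genes. Its inner root sheath keratins Krt25, Krt26, Krt27, Krt28, Krt72, Krt73 and Krt74 failed the filter on low counts, with at most 10 counts in any library. Krt71, which was tested, had at most 15. Tgm3 (-8.12), the transglutaminase that cross-links trichohyalin, and Krt75 (-4.75), a keratin of the companion layer and medulla, fell. Gata3 (0.72), a transcription factor of the inner root sheath, and S100a3 (1.72), a deiminase substrate of the hair cuticle, rose. Tgm3 and Padi3 stand in this list and in that of the processing enzymes. Of 7 tested fibroblast genes, Dcn fell from 17 and 10 counts to 1 and 0, or 31.8-fold (95% counting interval 5.24 to 1302), Pdgfra (-2.91) fell, Twist2 (1.43) rose and 4 did not pass. The part of feeder cells in the results was not tested.

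In cultures labelled Rxra cKO the medium effect called 15 processing genes lower and 1 higher (median -1.03), 16 envelope genes lower and 3 higher (median -1.88), and 4 inner root sheath and medulla genes lower and 3 higher (median -0.36), where 22.2% of all genes tested were lower and 20.8% higher. In the genotype effect in FBS, 14 of 20 processing genes and 17 of 21 envelope genes were lower, and 1 and 2 were higher, against 20.5% lower and 22.3% higher of all genes. In atRA+PKCi 11 processing genes were higher and 4 lower, and 17 envelope genes were higher and none lower, against 23.0% higher and 20.2% lower of all genes. In the interaction 14 processing genes, 19 envelope genes and 2 of 11 inner root sheath and medulla genes were lower, and 3, 1 and 3 were higher, against 13.3% lower and 11.3% higher of all genes. Tgm3 was lower in Rxra cKO FBS than in wild-type FBS (-4.12, edgeR adjusted p = 1.78e-07), and in atRA+PKCi its genotype difference was 0.26 (adjusted p = 0.331).

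In anagen VI skin Tchh had many molecules and the epidermal members almost none. The cells were sorted as negative for the surface markers CD45, CD31, CD140a (Pdgfra) and CD117, yet fibroblasts were the most numerous class, and 14458 and 13915 cells passed the filters. The 2 libraries shared 62 barcodes, 46 after the filters. Over all cells kept as singlets, Tchh had 14501 unique molecular identifiers (UMIs) in mouse 1 and 12188 in mouse 2, and Tchhl1 had 355 and 236. Flg had 11 and 9 UMIs, Flg2 15 and 38, Hrnr 13 and 12, and Rptn 0 in both mice. Crnn had 107 and 61.

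Cells were clustered without the 6 genes into 28 clusters, and levels by cluster are a description with no test. The highest Tchh level was in a cluster of 676 and 480 cells led by Gpnmb, Foxq1, Csta1 and Aldh1a3. Its leading genes did not meet the marker rule for any class. The hair matrix list scored best, with 8 of its markers detected, but held 0 of the 10 leading genes, and another list held 1. This cluster is called the Foxq1-led cluster here. Of the medulla markers it held Foxq1 at 419 and 306 CPM, Bambi at 299 and 240 CPM and Krt75 at 364 and 337 CPM. The other medulla markers listed were low there, with Adamts18 at 1.59 and 3.27 CPM and the carboxypeptidase M gene Cpm at 1.30 and 1.14 CPM, the latter against 32.2 and 66.3 CPM in the inner root sheath. Krt46 was not among the symbols of the matrices. Tchh was at 1320 CPM (95% counting interval 1293 to 1347) in mouse 1 and 1257 CPM (1229 to 1285) in mouse 2 in this cluster. The inner root sheath class, led by Krt71 and Krt73, had 284 CPM (275 to 293) and 233 CPM (224 to 242), and fibroblasts had 12.5 and 9.76 CPM. The Foxq1-led cluster thus held 63.1% and 63.2% of all Tchh UMIs and the inner root sheath 25.2% and 21.3%. The next class in rank, Schwann cells, is set by 1 cell, which held 56 of the 58 UMIs of mouse 1.

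Tchhl1 was narrower still. It was at 45.2 CPM (40.3 to 50.5) and 31.8 CPM (27.5 to 36.6) in the Foxq1-led cluster and at 0.621 CPM (0.268 to 1.22) and 1.34 CPM (0.751 to 2.21) in the inner root sheath, where 10 of the 15 UMIs of mouse 2 came from 1 cell. Fibroblasts were at 0.233 and 0.259 CPM. The Foxq1-led cluster held 88.2% and 82.6% of all Tchhl1 UMIs. Crnn lay elsewhere, with 6.67 and 4.11 CPM in the inner root sheath against 0.577 and 0.163 CPM in the Foxq1-led cluster, so Crnn and the trichohyalin genes differed in the class with their highest level.

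**Figure D4:**
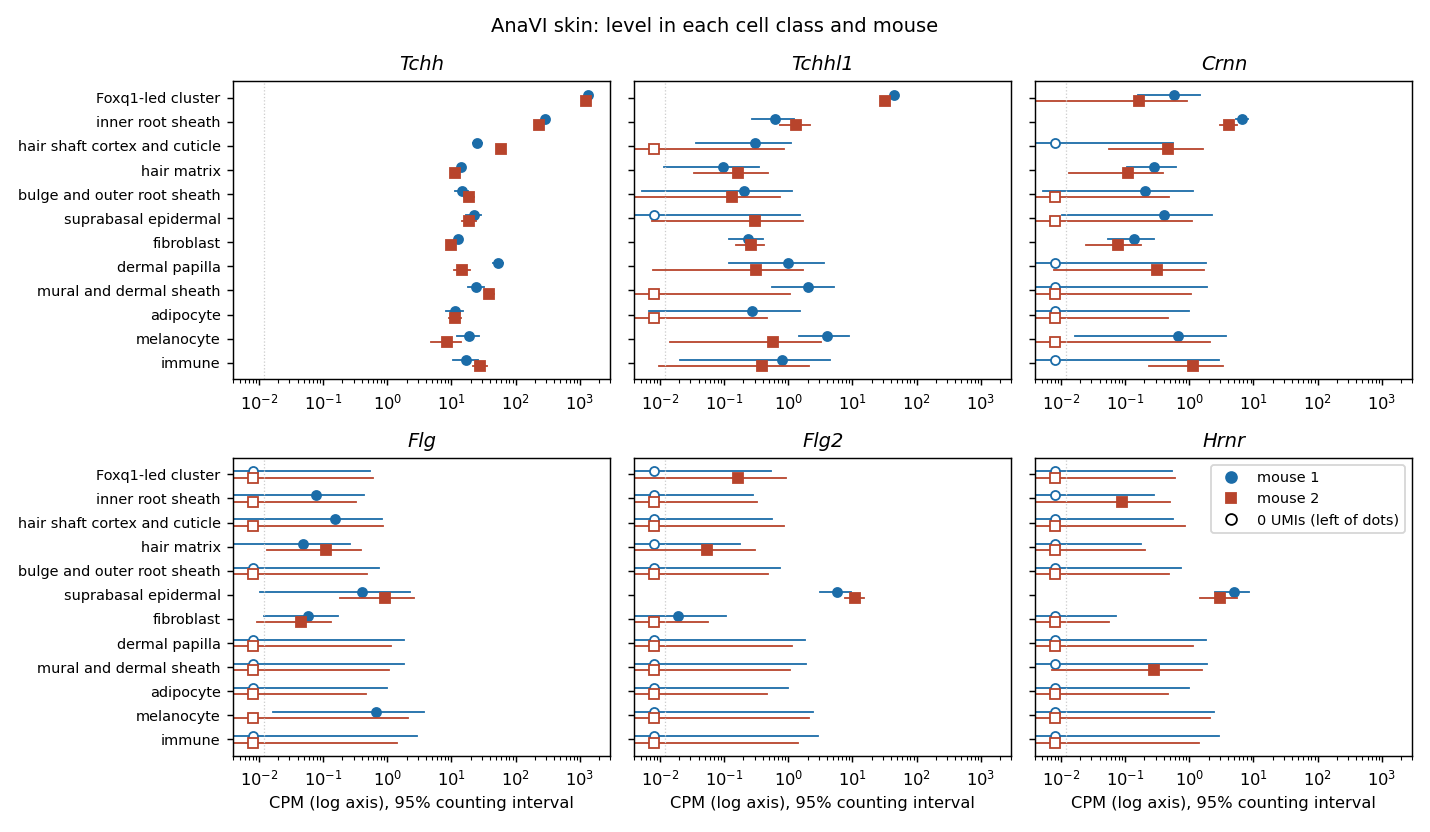
Level of Tchh, Tchhl1, Crnn, Flg, Flg2 and Hrnr in the Foxq1-led cluster and in 11 cell classes of anagen VI skin, in CPM on a log axis. The 2 markers per row are the mice, bars are 95% counting intervals cut at the axis edge, and open markers left of the dotted line stand for 0 UMIs. Among these rows Tchh and Tchhl1 are highest in the Foxq1-led cluster, Crnn in the inner root sheath, and Flg2 and Hrnr in suprabasal epidermal cells.

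Within the Foxq1-led cluster Tchh varied widely from cell to cell. The median was 3 and 2 UMIs per cell, the upper quartile 16 and 14, and the maximum 213 and 741. A Tchh UMI was seen in 66.1% and 61.5% of these cells, in 20.4% and 18.6% of inner root sheath cells and in 8.52% and 9.80% of fibroblasts, which should lack the gene, at median depths of 9384 and 12028, 9768 and 10964, and 8797 and 11627 UMIs per cell. Thinned to 2000 UMIs per cell the shares were 48.3% and 41.3%, 10.1% and 5.46%, and 2.00% and 1.69%, in the same order. Of the cells left out as shallower, 5 per mouse were in the Foxq1-led cluster, 12 and 20 in the inner root sheath, and 67 and 80 in fibroblasts. The inner root sheath share stayed above that of fibroblasts at equal depth. Cells with 10 or more Tchh UMIs numbered 308 and 187 and held 83.7% and 82.7% of all Tchh UMIs. Of these cells 73.7% and 77.5% lay in the Foxq1-led cluster and 22.1% and 15.0% in the inner root sheath.

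**Figure D5:**
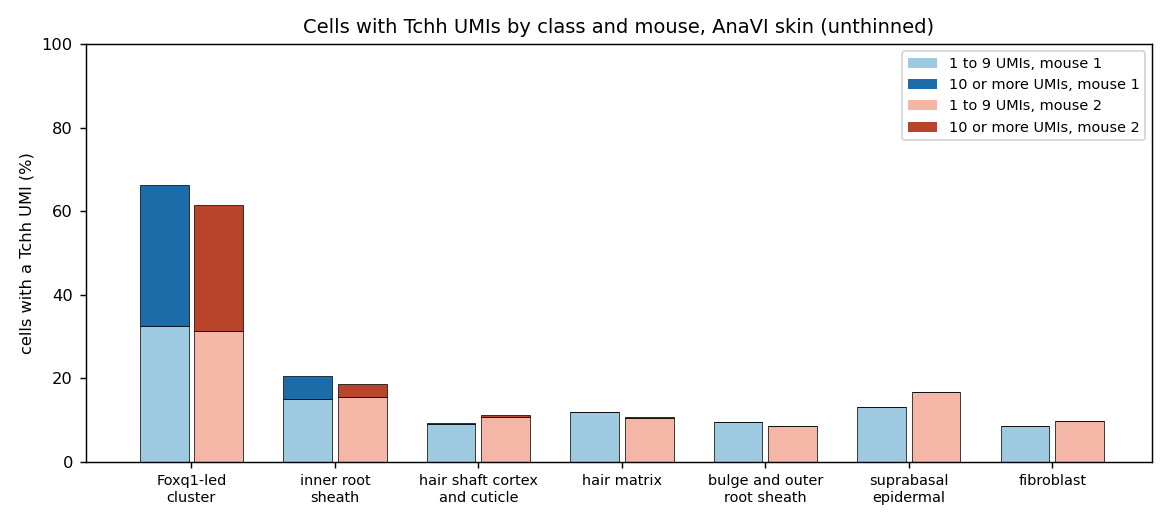
Percent of cells with a Tchh UMI in 7 groups of cells and each mouse, at full depth; the pale part of a bar is cells with 1 to 9 UMIs and the dark part cells with 10 or more. The Foxq1-led cluster reaches 66.1% and 61.5%, and a dark part is otherwise plain only in the inner root sheath.

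Tchhl1 was found in the cells that were richest in Tchh. In the Foxq1-led cluster Tchhl1 UMIs were seen in 0.873% and 0% of cells without a Tchh UMI, in 13.6% and 11.3% of cells with 1 to 9 and in 43.6% and 40.7% of cells with 10 or more. Median depth over these steps was 8621, 9131 and 10045 UMIs per cell in mouse 1 and 10822, 12846 and 12802 in mouse 2. The 0% rests on 185 cells. Inner root sheath cells with 10 or more Tchh UMIs showed Tchhl1 in 1 of 68 cells in mouse 1 and in 0 of 28 in mouse 2.

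Across the 28 clusters, the genes closest to Tchh by Pearson correlation of log2(CPM + 1), mean of both mice, among 11779 genes compared, were Krt75 (0.76), Krt23 (0.75), St8sia6 (0.73), Krtap15 (0.72) and Krt90 (0.71). Closest to Tchhl1 were Krt90 (0.77), Csta1 (0.77), Sptssb (0.76), Krtap15 (0.70) and Aldh1a3 (0.69). The points share libraries, depth and the clustering, so these values only describe the pattern. Krt75 was also high in the inner root sheath, at 197 and 152 CPM, whereas Csta1 and Krtap15 were near 1 CPM or below there, as was Tchhl1. Of the listed processing genes, Padi3 (217 and 273 CPM), Tgm3 (69.4 and 61.6 CPM), Padi4 (45.0 and 36.4 CPM), Tgm1 (11.5 and 9.47 CPM) and Padi1 (10.4 and 10.4 CPM) had their highest class mean in the Foxq1-led cluster. The rest of that list did not.

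The epidermal members were at the limit of detection. The suprabasal epidermal class (303 and 294 cells) expressed Krt10 at 2197 and 1942 CPM and Krt1 at 876 and 810 CPM. It held Klk7 at 247 and 209 CPM, but its leading genes Cst6, Krt79 and Defb6 also stand in the list for the upper follicle. Of the listed envelope genes, Sprr1a was at 581 and 278 CPM in this class. Cdsn was at 15.1 and 1.51 CPM, Lor at 4.09 and 5.74 CPM and Lce1a1 at 0 and 0.604 CPM. Lor had its highest class mean in the Foxq1-led cluster. Whether the captured cells were late enough in cornification to express the epidermal members was not tested. The Flg2 level of the suprabasal class was 5.72 CPM (3.13 to 9.60) and 10.9 CPM (7.62 to 15.1), from 14 and 36 UMIs. All of these UMIs lay in 1 cell per mouse. Those same cells held all 12 and 10 Hrnr UMIs of the class. They had 39339 and 104824 UMIs, with 769 and 1240 from Krt10, and the class median was 7357 and 10470. Flg was seen in 1 and 3 cells of the class, at 1 UMI each. Rptn was seen in 0 of 303 and 0 of 294 cells, which allows a share of up to 0.9901% and 1.02% of cells with a captured Rptn UMI and sets no limit on cells expressing it. Counting intervals and such limits cover counting error only.

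Single cultured cells, hashtagged by medium, gave a further view of wild-type HFSCs. After demultiplexing, 5 and 10 cells of mouse 1 and 2 were in B-27 medium, 113 and 13 in BMP2/4, 92 and 27 in Rspo+BMP2/4, 5 and 21 in Rspo+BMP2/4+RARi (a retinoic acid receptor inhibitor), 5 and 6 in Rspo and 2 and 1 in atRA+PKCi. The study's description has the Rspo, BMP2/4 and RARi cultures treated with atRA and PKCi as well, so BMP2/4 and B-27 cultures differ in these agents too, and their parts cannot be told apart. Too few cells were assigned to atRA+PKCi, and none to FBS, for the bulk comparison to be repeated. Flg was at 2281 CPM (431 UMIs) and 1602 CPM (352 UMIs) in B-27 and at 7.58 and 9.79 CPM in BMP2/4. Rptn was at 2223 and 68.3 CPM in B-27 and at 1.08 and 1.96 CPM in BMP2/4. These 2 were the only members to pass the filter on low counts, and a member passes through the condition in which it is high, so the difference is given as levels with no test. Over all 6265 genes tested in counts summed per mouse and condition, 5.28% were lower and 0.431% higher in BMP2/4 (edgeR, adjusted p under 0.01 and a change of more than 1 log2 unit).

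Most of that signal came from a handful of cells. In mouse 1, 428 of the 431 Flg UMIs, all 420 Rptn UMIs and all 36 Hrnr UMIs of the B-27 culture lay in 1 cell, which also held 60 UMIs of Lor, 72 of Krt10 and 224 of Sprr1b. In mouse 2, 2 cells held 175 and 142 of the 352 Flg UMIs, and the first of these held all 15 Rptn UMIs. Without the top cell of each mouse Flg in B-27 was 18.6 CPM (95% counting interval 3.84 to 54.4) in mouse 1 and 865 CPM (742 to 1002) in mouse 2, and Rptn was at 0 in both. The Flg level of mouse 1 and the Rptn level of both mice in B-27 therefore each rested on 1 cell.

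Rspo+BMP2/4 was set against BMP2/4, and Rspo+BMP2/4+RARi against Rspo+BMP2/4, in the same fit. In these comparisons edgeR called 0 of 6265 genes (0%), with 44 and 232 genes at an unadjusted p under 0.05. Flg differed by -0.25 ± 0.63 in the first. Tchh was low throughout these cultures, with 48 and 24 UMIs over all conditions and 4.599 and 19.6 CPM in BMP2/4. In Rspo+BMP2/4+RARi 8 Tchh UMIs of mouse 1 came from 1 cell, and mouse 2 was at 8.30 CPM. The highest Tchh value in any assigned cell was 8 UMIs.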

How the data were processed

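The 8 bulk libraries were deposited as estimated counts per gene: the authors ran Salmon 1.4.0 against mm10 transcripts and summed to genes. The table deposited beside them holds signal values, DESeq2-normalized counts made by the authors. The 4 single-cell matrices hold UMI counts that the authors made with Cell Ranger 7.0.1 per the labels, with hashtag counts for cultures. Bulk totals of 25150300 to 35879800 make counting error small except for Flg2 and for wild-type atRA+PKCi.

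Estimated counts were rounded and tested with edgeR 4.0.16 (R 4.3.3; TMM, filterByExpr, quasi-likelihood, 1 fit of 4 group means, Benjamini-Hochberg over 15965 genes, adjusted p under 0.05). CPM uses TMM-scaled totals. Single cells had at least 500 genes, at least 1000 UMIs and under 10% mitochondrial UMIs. Scrublet doublets (6.13% and 4.22%) were removed, and cells were clustered by Leiden (scanpy 1.11.5, leidenalg 0.10.2, resolution 0.6). Cultures were demultiplexed with HTODemux (Seurat 5.3.0), which gave 372 and 175 singlets, of which 222 and 78 passed the filters. They were summed per mouse and condition where each mouse had at least 5 cells.

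The members and lists were chosen with earlier results of these data known. From each list, the called genes that rank first, second, last and second to last by signed log2 fold change of the wild-type medium effect are named, plus Crnn. Same-numbered bulk libraries of a genotype come from 1 mouse per the labels. Their deviations correlated at 0.14 in wild type and at -0.0008 in Rxra cKO. On simulated data with 200 changed genes, edgeR recovered 73.2% of changes of 1, 96.1% of 2 and 96.2% of 3 log2 units for the wild-type medium effect over 15965 genes. For BMP2/4 against B-27, over 6265 genes, the shares were 1.56%, 27.9% and 79.4%. False edgeR calls numbered 11 and 1 in these 2 simulations. The changed genes were drawn from those with higher mean counts, and each had the same level in all groups before the change. The shares therefore do not cover genes with very low counts in a group, such as most members in wild-type atRA+PKCi. Alternatives were DESeq2 1.42.0, limma 3.58.1 on log2 of the authors' normalized counts, other filters and thresholds, a mouse block and each library left out. Chromatin data of the series were not used here.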

Additional observations from a re-analysis of the deposited data

Results flagged for a closer look

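The medium effect differed between wild-type and Rxra cKO cultures for each of the 6 genes, tested as an interaction term in edgeR. The difference, wild-type minus Rxra cKO, was -4.94 for Flg, -4.05 for Flg2, -5.83 for Hrnr, -4.79 for Rptn, -3.58 for Tchh and -6.19 for Tchhl1 on the log2 scale. It was tested on 2 mice per genotype, and for Tchh the 2 effects have opposite signs. The Flg2 difference rests on 1 count in wild-type atRA+PKCi, and its call was lost with DESeq2.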

How the results depend on the processing

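Of 504 fold changes of single members under the alternatives, 480 kept their direction and side of the threshold, 15 lost and 4 gained the call, and 5 changed sign, none of them past the threshold. All 84 values of the wild-type medium effect kept both. The 504 include 32 values of Flg and Rptn for each culture comparison. Those of BMP2/4 against B-27 carry no weight here, since that difference is given as levels with no test. With mouse as a replicate block, which pairs the 2 libraries of a mouse, the Flg2 interaction was -4.07 (adjusted p = 0.0473), and the block changed no other call of a member. Sign changes were seen for Flg in the genotype effect in FBS without wild-type FBS replicate 2 (-0.0296), and, with hashtags assigned by share or with no mitochondrial limit, for Rptn in Rspo+BMP2/4 against BMP2/4 (-0.036 and -0.50) and for Flg on adding RARi (0.26 and 0.17). The cause was not tested.

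Hrnr in the genotype effect in FBS also failed with limma (adjusted p = 0.168 and 0.18 at pseudocounts of 1 and 0.5). Flg2 in atRA+PKCi passed with limma (1.56 and 2.12), and Flg in FBS passed with no filter on low counts (0.31) and without wild-type FBS replicate 1 (0.81), so that 1 member was called higher there (0 to 1 over the left-out libraries). With calls limited to adjusted p under 0.01 and changes of more than 1 log2 unit, a stricter rule by construction, 0 members were higher in the Rxra cKO medium effect, since Tchh is at 0.95. That rule called 1381 genes higher and 1579 lower for the wild-type medium effect, 817 and 1041 for the Rxra cKO medium effect, 1105 and 656 for genotype in FBS, 1406 and 675 for genotype in atRA+PKCi and 440 and 694 for the interaction.

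Against 1807 genes higher and 2117 lower in the interaction, DESeq2 called 1202 higher, and limma 975 and 1336 (939 and 1299 at a pseudocount of 0.5). For genotype in atRA+PKCi, against 3225 genes lower, limma called 2138 (2105). Leaving out each library in turn gave 961 to 1878 higher and 1375 to 2484 lower in the interaction, 1971 to 3555 lower for genotype in atRA+PKCi, and 2133 to 3724 higher and 2326 to 3890 lower for the Rxra cKO medium effect. The lowest of these were without an Rxra cKO atRA+PKCi library.

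For BMP2/4 against B-27, against 27 genes higher and 331 lower, the counts were 84 higher with no filter, 96 and 554 at adjusted p under 0.05, 72 and 543 with hashtags by share, and 87 higher with no mitochondrial limit. Leaving out each sum gave 2 to 90 higher and 57 to 551 lower, the fewest lower without BMP2/4 of mouse 1. For Rspo+BMP2/4 against BMP2/4 there were 4 higher and 4 lower with no filter, and 0 to 1 and 0 to 3 with a sum left out. On adding RARi 6 were higher and 1 lower with no filter. In skin, Tchh in fibroblasts was 18.7 CPM with doublets kept (11.1 without), Tchh in the inner root sheath 209.8 CPM in cells of 1000 or more genes and under 5% mitochondrial UMIs (258 before), and Tchhl1 there 0.374 CPM in cells of 3000 or more UMIs (0.981 before). Counts were very low for Flg2 in wild-type atRA+PKCi, with 1 count, and for all epidermal members in skin. Whether depth or the cells captured set these counts was not tested.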
